A study of Homo sapiens and Mus musculus with 69 samples.

Results

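NCI-H524 (H524) is a small cell lung cancer line of the neuroendocrine kind, in which the proneural transcription factor NEUROD1 is high. Gene expression in H524 cells carrying a doxycycline-inducible *REST* vector but grown without doxycycline (H524_REST_no_dox, 3 libraries, numbers 34 to 36) was compared with that in unmodified cells (H524_parental, 3 libraries, numbers 19 to 21). These were 6 of the 69 libraries of the series, and 13648 of the 20516 genes in the human table reached a level of 1 in at least 3 of the 15 H524 libraries and were tested. The comparison asked how far the vector-carrying line stood from the parental cells before the transgene was switched on. The REST line had been made by lentiviral transduction and drug selection, which the parental cells did not go through. Per the study's methods, transduced cells were then kept on puromycin or blasticidin at a lower dose, so drug exposure may have differed as well. Whether the REST line was a pool or a clone and which drug was used for it were not given in the sources used here. The number of passages between it and the parental cells was not given either. Beside these stand the same line with doxycycline (H524_REST_dox, libraries 37 to 39) and H524 cells carrying an uninduced *NOTCH1* intracellular domain (N1ICD) vector (H524_NOTCH1_no_dox, libraries 22 to 24). The study's methods describe overexpressing cells as adherent cells, taken after long-term culture with doxycycline. The doxycycline libraries may therefore differ from the others in time and in selection for adherence as well. No label gave a culture, passage or day for any library. The *P* values therefore measure only the spread between the libraries of each fit, which may be technical.

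REST is a zinc finger repressor that binds RE1 sites near neuronal genes and recruits the RCOR1 and SIN3A corepressor complexes. It keeps neuronal genes silent outside the nervous system. Neuroendocrine small cell lung cancer cells express many of those genes, and REST is known as a Notch-induced factor on the path to a non-neuroendocrine state.

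All levels below are log2(RPKM + 1), where RPKM is a read count scaled to transcript length and library size, and fold changes are differences on this log2 scale, which understates changes of genes near 0. *REST* was 4.86, 4.95 and 4.52 in the parental libraries and 5.05, 5.03 and 4.90 in the REST line without doxycycline. The REST line libraries were near the top of the parental range or above it, and the ranges overlapped. The log2 fold change was 0.22 (SE 0.69, limma, adjusted *P* = 0.974). That SE comes from a fit over all 5 H524 groups, among them the widely spread induced libraries. Fitting only the 2 groups compared gave a limma adjusted *P* of 0.759. The vector line with doxycycline reached 6.87, 10.72 and 9.43, so the induced libraries all lay above both uninduced groups. *NOTCH1* was low in both groups, at 0.24, 0.23 and 0.73 in parental cells and 0.53, 0.46 and 0.49 in the REST line (adjusted *P* = 0.973).

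The cell type markers matched the label in all 6 libraries. *NEUROD1* ranged from 13.07 to 14.77, *SCG3* from 11.12 to 11.99 and *INSM1* from 7.76 to 8.56. *POU2F3*, a marker of tuft-like tumors, did not exceed 0.18. The leukocyte marker *PTPRC* was listed at 0 throughout. Of the markers of other cells, the summed levels of the 9 leukocyte markers overlapped (3.80 to 4.87 parental, 4.02 to 4.61 REST line), as did those of the 11 fibroblast and endothelial markers (1.86 to 3.95 and 1.71 to 2.70). The 13 lung epithelial markers summed to 5.31 to 7.44 in parental cells and 2.11 to 3.56 in the REST line, where *EPCAM* and *KRT18* were among the lower members. Neither gene passed the test (adjusted *P* = 0.408 and 0.152, limma). In bulk RNA, fewer cells of a type and less RNA per cell cannot be told apart, and the part of these markers in the results below was not tested.

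The libraries were not alike within groups. Relative library size, read from the steps between low values, ran from 0.701 to 1.17 over the 6 libraries, lowest in library 20. Libraries 20 and 34, 1 of each group, stood apart through heat shock genes. The inducible chaperone gene *HSPA1B* was 13.24, 15.85 and 10.21 in parental cells and 15.60, 10.20 and 10.17 in the REST line. *DNAJB1*, which encodes an HSP70 co-chaperone, was 7.77, 9.61 and 4.36 against 9.51, 4.31 and 4.35. Reads of *HSPA1A* and *HSPA1B*, which are near-identical copies, could have been divided between them by the estimation. The split ran inside both groups, and none of the 10 heat shock genes was called, beside 0.264% of all genes (median log2 fold change -0.51). That median was 0.11 without library 20 and -0.98 to -0.22 with any other single library left out. It was -0.77 without libraries 20 and 34. Because libraries 20 and 34 stood apart, counts of called genes that rest on either are also given without both. Leaving out both did not make the groups alike in heat shock genes. The summed level of the 10 genes was 87.1 in parental library 19 and 75.6 in parental library 21. It was 72.2 and 71.5 in REST line libraries 35 and 36. The part of the heat shock genes in the results was not tested.

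**Figure D1:**
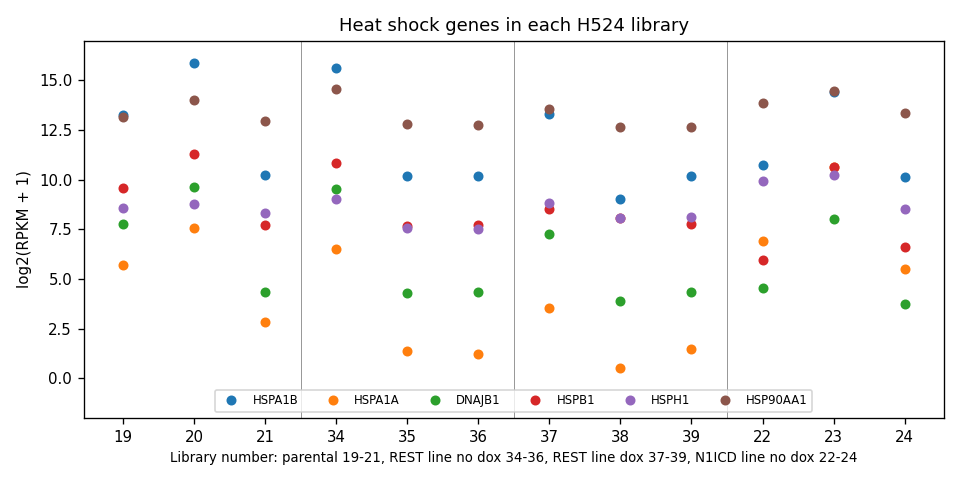
Level of 6 heat shock genes, log2(RPKM + 1) on the vertical axis, in each of 12 H524 libraries by number, 1 point per gene and library. Parental library 20 and REST line library 34 were high together, at 15.85 and 15.60 for HSPA1B, while libraries 21, 35 and 36 sat between 10.17 and 10.21.

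Few genes were called between the uninduced REST line and parental cells, and nearly all of the called genes were lower in the REST line. The low count does not show that the other genes were alike. Of 13648 genes, 36 (0.264%) were called, defined as limma adjusted *P* under 0.05 and a log2 fold change of at least 1 in either direction. Of these, 33 (0.242%) were lower in the REST line and 3 (0.022%) higher. In all 36 the libraries of the groups did not overlap, which also held for 1025 genes below (7.51%) and 1267 genes above (9.28%) over the whole table. A total of 1327 genes (9.72%) had an unadjusted *P* under 0.05, and the median log2 fold change of all genes was 0.02. Without libraries 20 and 34, 15 genes were called, 14 of them among the 36. Leaving out library 19, 34, 35 or 36 gave 18, 22, 19 and 17 calls. The genes kept under all 14 alternatives were *SNTB1*, *CECR1*, *PCSK1*, *INSR*, *PTGR1*, *CLDN3*, *ARMCX1*, *GSTP1*, *FAM50B*, *CYB5R1* and *SALL3*, 11 of the 36.

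**Figure D2:**
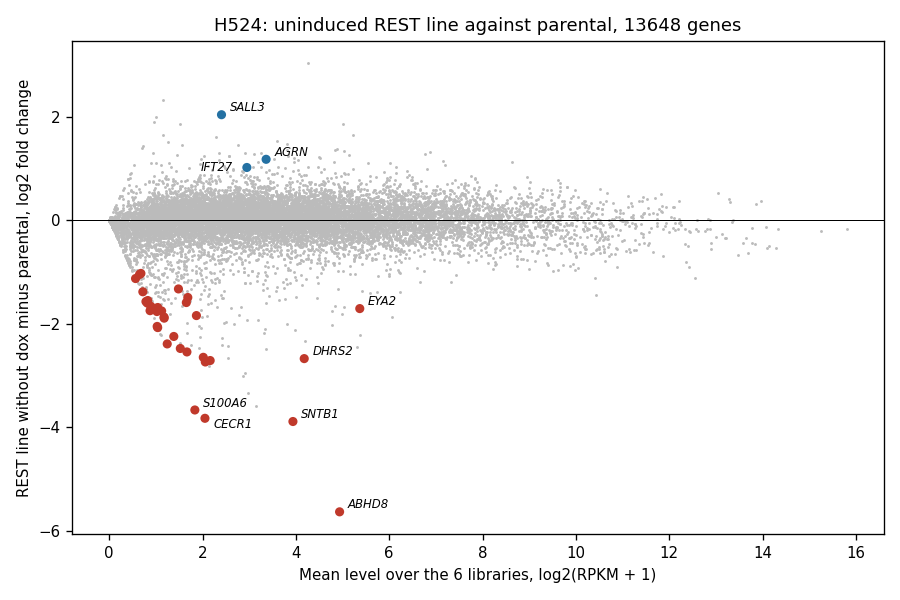
Log2 fold change of the REST line without doxycycline minus parental (vertical) against the mean level over the 6 libraries (horizontal, log2(RPKM + 1)), 1 point per tested gene, with the 33 called lower genes in red and the 3 called higher in blue. Most red points lie at a mean level under 3, and ABHD8 is the lowest at -5.64.

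The lower genes were mostly of modest level in parental cells and close to 0 in the REST line. In 23 of the 33 all 3 REST line libraries were below 1, and 6 (*S100A6*, *QPCT*, *C1QA*, *GSTP1*, *STOM* and *GSTO1*) were listed at 0 in all 3. Only 4 of the 33 had a parental mean of at least 4: *ABHD8*, *SNTB1*, *EYA2* and *DHRS2*. An exact 0 in this table can be a failed estimate, so no fold change against the REST line is given for those 6 genes. *C1QA* and *AHRR* reached 1 only in parental libraries, so they passed the filter through the group where they were high. No 2 called genes were next to each other among the tested genes of a chromosome. The 15 lower genes with the widest differences and a parental mean of at least 2, and the 3 higher genes, are named by a rule; the others are named after their values were seen. Genes of like function are described together for reading only, and no list of them was tested.

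*ABHD8*, which encodes an alpha/beta hydrolase fold protein and lies on chromosome 19 (hg19, 17402940 to 17421045, minus strand), had the widest difference. It was 7.67, 7.51 and 8.09 in parental cells and 0.00, 3.00 and 3.35 in the REST line. The groups were far apart, and library 34 was listed at 0 where the other REST line libraries were near 3. The log2 fold change was -5.64 (SE 0.74, adjusted *P* = 0.00332). The gene overlaps *MRPL34* and *DDA1* on the opposite strand, and the libraries were prepared with a stranded kit, whose strand setting in the estimation was not given in the sources used here.

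*SNTB1* (syntrophin beta 1, an adaptor of the dystrophin complex) was 6.53, 5.00 and 6.12 in parental cells and 1.67, 2.19 and 2.11 in the REST line. Its log2 fold change was -3.89 (SE 0.35, adjusted *P* = 8.7e-05). *CLDN3*, a tight junction claudin at chromosome 7 (73183327 to 73184600), was 2.37, 2.02 and 1.98 against 0.11, 0.36 and 0.22, a log2 fold change of -1.90 (SE 0.17). *TGFBI*, a secreted matrix protein named for its induction by TGF-beta, was tightly grouped in parental cells at 3.52, 3.49 and 3.28 and more spread in the REST line at 0.24, 0.62 and 1.21. It only just passed the test (adjusted *P* = 0.0442). *S100A6*, a calcium-binding protein gene at chromosome 1 (153507075 to 153508720), was 3.25, 3.42 and 4.34 in parental cells and listed at 0 in every REST line library. *TAGLN2*, the actin-binding transgelin 2, was 1.70, 1.58 and 1.58 against 0.00, 0.04 and 0.00. *STOM*, an integral membrane scaffold protein, was 1.79, 1.16 and 1.77 and listed at 0 in the REST line.

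*PCSK1*, the prohormone convertase of neuroendocrine secretory granules, was 3.16, 2.29 and 2.84 in parental cells and 0.46, 0.25 and 0.14 in the REST line (log2 fold change -2.48, SE 0.26, adjusted *P* = 0.000385). *INSR*, the insulin receptor, was 2.71, 1.97 and 2.63 against 0.09, 0.05 and 0.00 (-2.39, SE 0.21). *CECR1*, now named *ADA2*, encodes a secreted adenosine deaminase and was 4.31, 3.75 and 3.85 against 0.41, 0.00 and 0.00 (-3.83, SE 0.29, adjusted *P* = 6.2e-05). All 3 genes were near the floor in the REST line, with no overlap. *QPCT*, the glutaminyl cyclase that closes the N-terminus of peptide hormones, was 2.71, 1.93 and 1.59 in parental cells and listed at 0 in the REST line. *C1QA*, a chain of complement C1q, was 2.92, 1.95 and 1.30 and likewise listed at 0.

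*GSTP1*, the pi class glutathione S-transferase at chromosome 11 (67351213 to 67354127), was 1.49, 1.89 and 1.87 in parental cells and listed at 0 in the 3 REST line libraries. *GSTO1*, of the omega class, was 1.68, 0.75 and 0.96 and also listed at 0. *GSTM4*, of the mu class, was 1.30, 1.53 and 0.70 against 0.02, 0.15 and 0.20. The mu class genes are close copies, so the estimated level of *GSTM4* is uncertain. *PTGR1*, prostaglandin reductase 1, was 2.68, 2.73 and 2.12 against 0.00, 0.41 and 0.37 (log2 fold change -2.25, SE 0.20), and *CYB5R1*, a cytochrome b5 reductase, differed by -1.59 (SE 0.18). *DHRS2*, a short-chain dehydrogenase, was 6.38, 6.30 and 3.87 against 2.71, 2.94 and 2.87, so parental library 21 lay nearer to the REST line than to the other parental libraries. *MT1G*, a metal-binding metallothionein with close paralogs, was 2.91, 3.32 and 2.59 against 0.00, 1.17 and 0.00. *TSTD1*, a thiosulfate sulfurtransferase, was 3.58, 3.51 and 3.47 against 0.00, 0.82 and 1.59. *AHRR*, the repressor of the aryl hydrocarbon receptor, was 2.29, 2.58 and 1.58 against 0.77, 0.83 and 0.86, and its call was lost with no filter on low values (adjusted *P* = 0.0397 with the filter and 0.0524 without).

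*EYA2*, a developmental transcriptional coactivator and phosphatase, was the best expressed of the lower genes in the REST line, at 6.49, 5.95 and 6.23 in parental cells and 4.89, 4.37 and 4.28 there (log2 fold change -1.71, SE 0.25, adjusted *P* = 0.00823). *C21orf90*, listed under an older symbol with no position here, was 3.83, 2.45 and 3.74 against 0.00, 0.77 and 1.30. *ARMCX1* (-1.85) and *TCEAL5* (-1.77) lie on chromosome X within 1723089 bases of each other. *JSRP1*, *ISYNA1*, *KRBOX1*, *FAM50B*, *HYLS1*, *CCSER1*, *DUSP2* and *DNALI1* completed the set, with log2 fold changes between -1.87 and -1.03.

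The 3 higher genes were *SALL3*, *AGRN* and *IFT27*. *SALL3*, a spalt-like zinc finger transcription factor, was 1.03, 1.46 and 1.67 in parental cells and 3.69, 3.37 and 3.21 in the REST line (log2 fold change 2.04, SE 0.24, adjusted *P* = 0.00112). *AGRN*, the heparan sulfate proteoglycan agrin, was 2.79, 2.67 and 2.87 against 4.18, 3.81 and 3.86 (1.18, SE 0.21, adjusted *P* = 0.043). *IFT27*, a small GTPase of intraflagellar transport, was 2.56, 2.49 and 2.27 against 3.88, 3.13 and 3.37 (1.02, SE 0.19, adjusted *P* = 0.048). *SALL3* held under every alternative, while *AGRN* and *IFT27* lost the call under most of them.

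**Figure D3:**
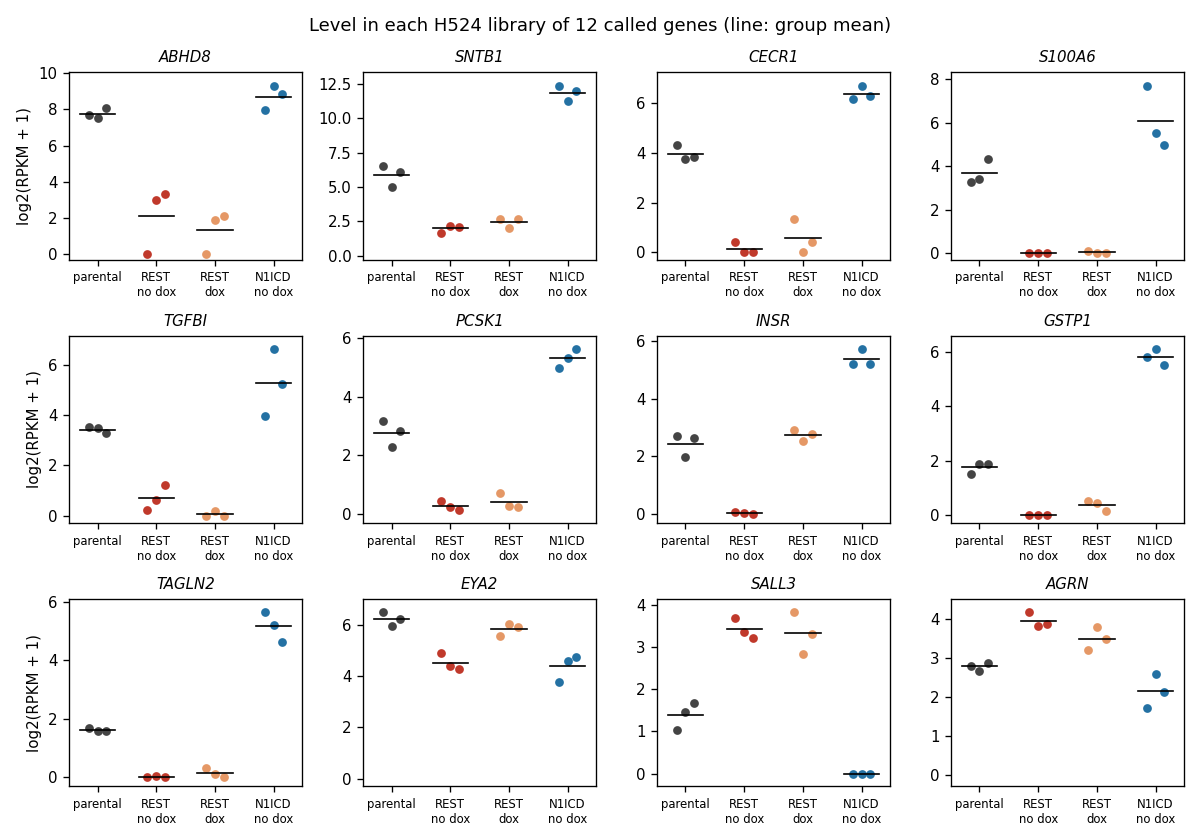
Level of 12 called genes, log2(RPKM + 1), in each library of 4 H524 groups with 3 points per group and a line at the group mean. For GSTP1, S100A6 and TAGLN2 the REST line points lie at or near 0, parental points in between and N1ICD line points on top, while SALL3 shows the opposite order.

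Promoter sequence is shown for *GSTP1*, *S100A6* and *CLDN3*, 3 genes of different chromosomes that were at or near 0 in the REST line. The sequences are RefSeq promoters of GRCh38.p14, the 250 bases before the annotated start, 5′ to 3′ on the gene's strand, with CpG dinucleotides in capitals. The windows are chr11:67583562-67583811 (plus strand), chr1:153535992-153536241 (minus) and chr7:73770271-73770520 (minus).
GSTP1: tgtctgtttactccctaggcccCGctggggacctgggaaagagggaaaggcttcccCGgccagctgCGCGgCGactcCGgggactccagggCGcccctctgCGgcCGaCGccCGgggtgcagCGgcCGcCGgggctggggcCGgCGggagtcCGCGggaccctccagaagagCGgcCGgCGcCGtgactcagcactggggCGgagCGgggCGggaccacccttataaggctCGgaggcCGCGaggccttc
S100A6: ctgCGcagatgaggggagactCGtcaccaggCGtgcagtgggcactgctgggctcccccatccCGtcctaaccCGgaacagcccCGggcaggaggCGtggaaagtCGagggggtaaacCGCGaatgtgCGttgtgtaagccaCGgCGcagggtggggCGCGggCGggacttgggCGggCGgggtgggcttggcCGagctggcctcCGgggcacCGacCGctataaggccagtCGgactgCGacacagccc
CLDN3: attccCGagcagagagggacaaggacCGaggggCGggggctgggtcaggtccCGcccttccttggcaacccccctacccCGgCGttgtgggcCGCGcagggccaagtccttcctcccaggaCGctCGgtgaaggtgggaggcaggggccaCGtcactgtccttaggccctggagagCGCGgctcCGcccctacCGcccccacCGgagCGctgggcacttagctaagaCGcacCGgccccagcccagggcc
These windows hold 28, 24 and 19 CpG dinucleotides. RefSeq promoters were matched for 10800 tested genes and for 25 of the 33 lower genes. The 25 held a median of 18.0 CpG dinucleotides (0 to 31) and the 10800 a median of 21.0, and 23 of the 25 (92%) had at least 10, against 84.6% of all. TTCAGCACC, the left part of the RE1 element, was searched on both strands. It was in none of the 25 windows and in 32 of the 10800 (0.296%), which says only that these letters were not in these windows.

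The lower genes did not take one course across the other H524 groups. In the REST line with doxycycline, 30 of the 33 were below every parental library, beside 11.1% of all tested genes. The 33 had been chosen for lying below these same parental libraries, and the doxycycline libraries were in the fit. *C1QA* and *AHRR*, which passed the filter through the parental libraries alone, are among the 30. The 2 shares are therefore not a test. Of the 23 genes below 1 in all 3 REST line libraries without doxycycline, 19 were also below 1 in all 3 with it. *INSR* was the clearest exception, at 2.92, 2.53 and 2.78, which is within or above the parental levels. *EYA2* was 5.54, 6.01 and 5.90 and *C21orf90* 2.46, 4.44 and 4.20 with doxycycline, both overlapping parental cells.

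In the N1ICD line without doxycycline, 20 of the 33 genes were above every parental library, 3 were below and 10 overlapped. The 3 below were *C1QA*, *EYA2* and *AHRR*. Of these, *C1QA* and *AHRR* passed the filter through the parental libraries alone, so their place below parental cells is not a result. Over all tested genes 12.6% were above and 18% below. The 2 vector lines differed from each other in 2385 genes (17.5% of those tested), and the N1ICD line differed from parental cells in 1651 (12.1%). Without libraries 20 and 34 these counts were 2074 and 1375. *SNTB1* was 12.35, 11.29 and 11.96 in the N1ICD line and *GSTP1* was 5.83, 6.12 and 5.54. *TAGLN2* was 5.65, 5.21 and 4.61 there and *PCSK1* 4.98, 5.33 and 5.63. *SALL3*, higher in the REST line, was listed at 0 in all 3 N1ICD line libraries. These comparisons share the REST line or the parental libraries with the first one, so the values are set side by side only.

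Uninduced N1ICD vector lines of 2 other neuroendocrine lines gave larger counts. In H82, 891 of 13903 genes (6.41%) were called against parental cells, and in H69 716 of 13580 (5.27%). Of the 33 genes lower in the H524 REST line, 28 were tested in H82, where 2 were called lower (*DHRS2* and *ARMCX1*) and 5 higher, beside 2.66% and 3.75% of all genes. In H69, 29 were tested, of which 3 were called lower and 2 higher, beside 2.25% and 3.02% of all genes. *CLDN3* was called in both, at 1.83 in H82 and -1.25 in H69, and *MT1G* at 2.17 and -1.45.

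None of the 45 tested neuronal genes on a list of known REST targets was called, beside 0.264% of all genes. Their median log2 fold change was 0.19, beside 0.02 for all genes. Of the 45, 35 were above 0, beside 7207 of all 13648. Every REST line library was above every parental library in 6 and below in 0, beside 9.28% and 7.51% of all genes. The synaptic vesicle gene *SYP* was 6.21, 5.81 and 6.67 in parental cells and 6.22, 6.30 and 6.47 in the REST line. *GRIN1*, an NMDA receptor subunit, had the widest value at 0.95 (adjusted *P* = 0.46). *SCN3A* and *STMN2*, among the best expressed members, were at 0.25 and 0.14 (adjusted *P* = 0.921 and 0.992). The list's median was 0.00 without libraries 20 and 34. None of the 11 genes of the REST complex was called, with a median of -0.01.

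Of 33 gene lists, 31 had no member called. The lists held 536 distinct tested genes, of which 2 were called, beside 0.264% of all tested genes. At that share a list without a called gene says little about its members. The 2 called members were *PCSK1*, 1 of 27 tested neuroendocrine regulators and markers, and *TGFBI*, 1 of 42 tested EMT genes. *NEUROD1* itself was at 0.36 (adjusted *P* = 0.874). Among EMT genes *THBS1*, a matrix glycoprotein, was 4.11, 2.69 and 4.51 against 0.77, 1.55 and 1.68 and missed the threshold (adjusted *P* = 0.0631). Of the Notch pathway, no receptor, ligand or cofactor was called. The target *HEY2* was 4.28, 4.47 and 4.03 against 3.23, 2.91 and 2.52, without overlap but with an adjusted *P* of 0.09.

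Antigen presentation and nucleic acid sensing, the processes the study was about, held no called gene among 18 and 14 tested. Beside 0.264% of all genes, these counts say little about the members. Of the 18, 9 were above 0, with a median log2 fold change of -0.06. Every REST line library was above every parental library in 5 and below in 1, beside 9.28% and 7.51% of all genes. Among the 14 this held for 3 and 3, and the median was 0.00. *HLA-E* was 1.46, 1.07 and 1.21 in parental cells and 0.03, 0.00 and 0.03 in the REST line (adjusted *P* = 0.0623, limma). It was the only member of the 18 wholly below parental cells, while the highest of the 18 was at 1.11. *TMEM173*, which encodes STING, was 2.49, 2.55 and 2.47 against 1.80, 1.41 and 1.55, so the groups did not overlap. Its log2 fold change was -0.92 (adjusted *P* = 0.58, limma). That *P* rests on a variance pooled over all H524 groups, induced ones included, not on the spread of the compared libraries alone. A value of 0.58 therefore does not show that the level of *TMEM173* was the same. *B2M*, the light chain of MHC class I, overlapped at 7.27, 7.61 and 6.53 against 7.08, 6.84 and 6.71. Of 35 interferon-stimulated genes none was called, beside 0.264% of all genes, and their median was 0.00. Every REST line library was above every parental library in 2 of the 35 and below in 5, beside 9.28% and 7.51% of all genes. Those named next were both lower, and the highest of the 35 was at 0.67. *HERC6* was 3.92, 3.76 and 3.34 against 0.42, 2.27 and 2.32 (adjusted *P* = 0.0631), with library 34 lowest, and *IFIH1*, a sensor of double-stranded RNA, was 3.84, 3.32 and 3.18 against 0.00, 2.39 and 1.99 (adjusted *P* = 0.389).

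Genes of cholesterol and fatty acid synthesis had the highest list median, 0.32 over 21 tested genes, 18 of them above 0. None was called, beside 0.264% of all genes, and the median was 0.18 without library 19. *FASN*, the fatty acid synthase, was 7.35, 7.62 and 7.60 in parental cells and 8.25, 8.24 and 8.27 in the REST line (0.73, adjusted *P* = 0.0945). The groups did not overlap. The other list medians lay between -0.32, for lung epithelial markers, and 0.25, for cadherins and clustered protocadherins, apart from heat shock genes. In the KRAB zinc finger list 20 of 25 tested genes were above 0 and the median was 0.21.

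Small differences were shared along chromosomes. Deviations from the mean of the parental libraries were taken for each gene, centred on all genes of a library, and their median was computed for each of 23 chromosomes. On chromosome 13 (255 tested genes) the medians were -0.02, -0.14 and 0.14 in parental libraries and -0.33, -0.28 and -0.30 in the REST line. The REST line libraries were close together and below the parental range. On chromosome 19 (926 genes) they were 0.04, 0.05 and -0.06 against -0.23, -0.24 and -0.23, and on chromosome 15 (439 genes) 0.10, -0.06 and -0.04 against -0.16, -0.13 and -0.14. The medians of the per-gene log2 fold changes were -0.29, -0.22 and -0.13 for chromosomes 13, 19 and 15, while those of the other chromosomes lay between -0.04 and 0.11. The value of chromosome 15 was -0.06 without library 19. The exact permutation test of 3 against 3 libraries gave a two-sided *P* of 0.1, the smallest this design allows, for 12 of the 23 chromosomes (adjusted *P* = 0.192 over 23). On 5 of these the REST line was below and on 7 above. The deviations were taken from the mean of the parental libraries, which holds those libraries near 0 and favours separation. This permutation *P* is therefore not a valid test, and no conclusion is drawn from it.

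**Figure D4:**
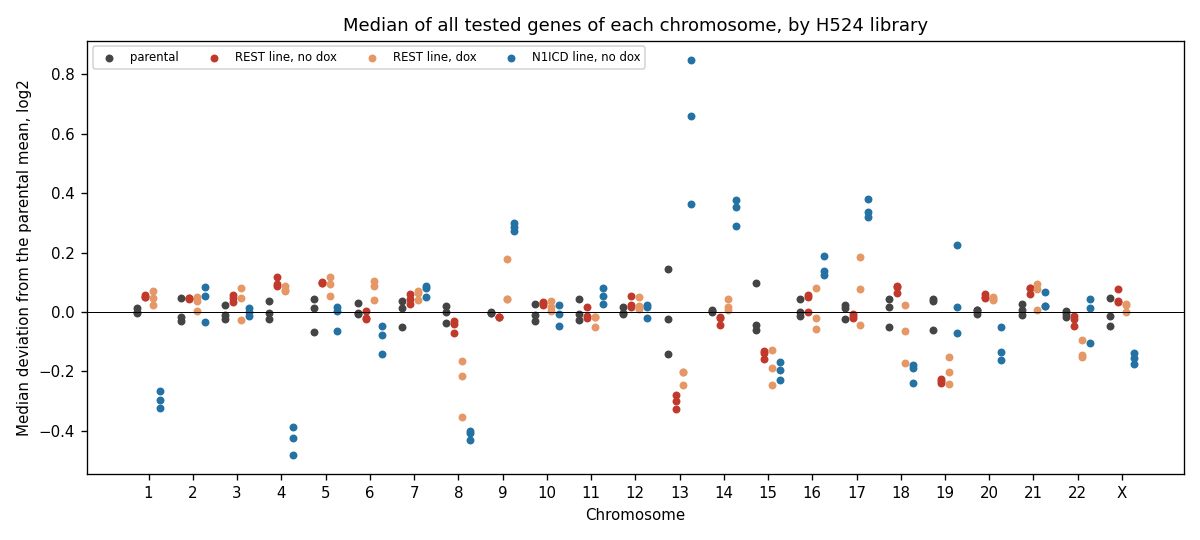
Median deviation from the parental mean (log2, vertical) of the tested genes of each chromosome, 1 point per library of 4 H524 groups. On chromosome 13 the REST line libraries lie between -0.33 and -0.28 and the N1ICD line libraries between 0.36 and 0.85, and on chromosome 19 the REST line libraries lie between -0.24 and -0.23.

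The shift on chromosome 13 came from many genes. In 217 of its 255 genes (85.1%) the log2 fold change was negative, against 46.5% of all genes. In 78 (30.6%) every REST line library was below every parental library, against 7.51% of the whole table, though none was called. On chromosome 19 this held for 218 genes (23.5%) and on chromosome 15 for 69 (15.7%). With the genes of chromosome 13 divided by position into 5 sets of 51, the medians were -0.23, -0.17, -0.34, -0.31 and -0.32, so no end of the chromosome was left out. With doxycycline the REST line had chromosome 13 medians of -0.25, -0.20 and -0.20, and the N1ICD line without doxycycline 0.36, 0.85 and 0.66. DNA copy number was not analysed here.

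**Figure D5:**
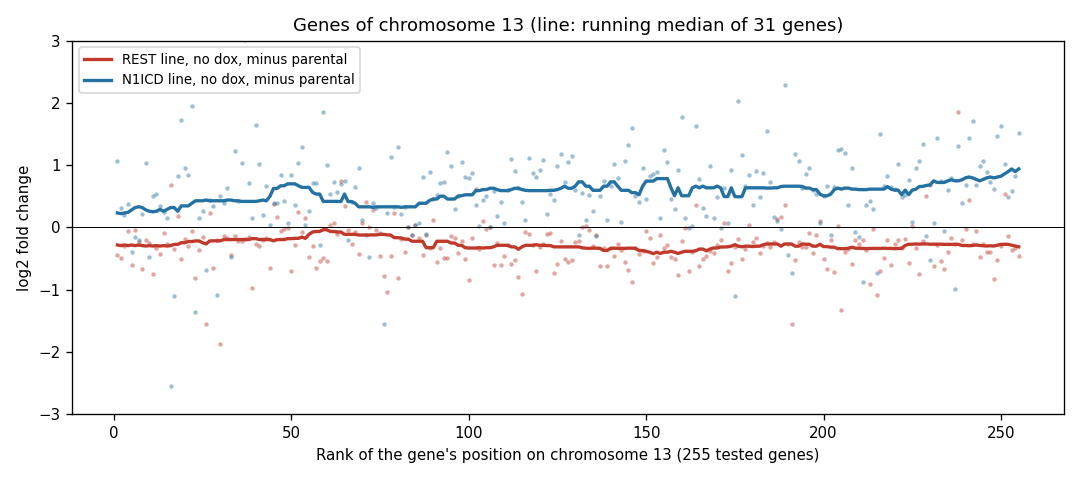
Log2 fold change against parental cells of each tested gene of chromosome 13, in order of position (horizontal), for the uninduced REST line (red) and the uninduced N1ICD line (blue), with running medians of 31 genes, and 1 point beyond the axis limit of 3. The red line stays at or below 0 from end to end and the blue line above 0.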

How the data were processed

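RNA from H524 cells was sequenced as stranded polyA libraries. Per the labels and the study's methods, reads were trimmed (cutadapt), aligned to hg19 (STAR) and quantified (RSEM), and the authors deposited TMM-normalized (edgeR) log2 RPKM values for 60 human libraries. Zeros in the table fit a pseudocount of 1, which is not stated. Read depth is unknown, so no counting intervals are given. Genes were kept at a level of at least 1 in at least 3 of 15 H524 libraries and fitted in limma 3.58.1 (R 4.3.3) with a variance trend over all 5 H524 groups. The methods name voom, which needs counts, so it was not used. Calls required a Benjamini-Hochberg adjusted *P* under 0.05 and a log2 fold change of at least 1. Groups came from sample titles. Genes, lists and comparisons were chosen with earlier results of these data known. Named genes were the 15 called genes of each direction with the largest differences, no overlap and a mean of at least 2, plus up to 4 called and 2 well expressed uncalled members per list; others were named after their values were seen. Lists are given by counts and medians, with no test. Gene positions are from GENCODE v44lift37 for 20079 of 20516 symbols, 1249 through older names. The fit was tested on simulated data. Alternatives changed the filter, pseudocount, normalization, variance model, groups fitted and libraries. The mouse table was not used.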

Additional observations from a re-analysis of the deposited data

Results flagged for a closer look

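The 2 uninduced vector lines of H524 lay on opposite sides of the parental libraries for 20 of the 33 genes called lower in the REST line: every REST line library was below and every N1ICD line library above the 3 parental libraries. Over all tested genes, 7.51% had every REST line library below and 12.6% every N1ICD line library above the parental libraries. The genes were chosen by these positions, so the difference between the lines was not tested. The log2 differences of the N1ICD line minus parental cells were *SNTB1* (5.99), *CECR1* (2.42), *S100A6* (2.40), *TGFBI* (1.88), *TSTD1* (2.16), *C21orf90* (2.73), *MT1G* (1.20), *PCSK1* (2.55), *INSR* (2.93), *PTGR1* (0.56), *QPCT* (2.43), *CLDN3* (1.15), *GSTP1* (4.08), *KRBOX1* (1.43), *FAM50B* (1.17), *TAGLN2* (3.54), *STOM* (3.13), *HYLS1* (2.21), *DUSP2* (2.47) and *GSTO1* (2.09).

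The median log2 fold change of the 255 tested genes of chromosome 13 was -0.29 in the REST line and 0.564 in the N1ICD line, each against the same parental libraries. All 3 libraries of the one lay below and all 3 of the other above the parental range of -0.14 to 0.14. This difference between the lines was not tested. Groups of 3 libraries were not searched for single deviating values.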

How the results depend on the processing

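The 36 calls became 19 with no filter on low values, 95 with a pseudocount of 0.1, 17 with libraries 35 and 36 averaged as 1 replicate, and 15 without libraries 20 and 34 (both chosen after seeing the data), and 17 to 51 when 1 library was left out. Quantile normalization, centring, fitting only the 2 groups and variances without a trend gave 32, 54, 34 and 33, of which 31, 35, 19 and 33 were among the 36. Of the called genes' values under these alternatives, 179 lost the call and none changed direction. The called list members (2) numbered 1 with no filter, 7 with the smaller pseudocount, 4 after centring, 4 with the 2 groups alone, 1 with libraries 35 and 36 averaged, 1 without libraries 20 and 34, and 1 to 2 with 1 library left out. Fitting 2 groups alone gave 548 calls for the H524 N1ICD line (1651) and 321 for the H82 N1ICD line (891), and the latter ranged from 617 to 1582 with 1 library left out, highest without library 4.

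The chromosome 13 median was -0.166 with no filter, -0.403 without libraries 20 and 34, -0.454 over genes with a mean of at least 3, and -0.393 to -0.219 with 1 library left out. That of chromosome 19 was -0.101, -0.267 with a pseudocount of 0.1, -0.313 for the better expressed genes and -0.248 to -0.151, and that of chromosome 15 -0.195 to -0.06. The median of REST-repressed genes was -0.002 without libraries 20 and 34. Apart from fewer libraries or other genes tested, the cause was not tested. No paired analysis was possible because the title numbers run on through the series and are shared by no 2 groups. Without counts, depth cannot set limits, and values near 0 are the least certain.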

Other observations

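Ribosomal protein genes, a set chosen after their values were seen, were lower in the REST line on average, with log2 fold changes of -0.78 to -0.24 for all 62 on chromosomes other than 13, 15 and 19. Their medians by library were -0.21, 0.83 and -0.59 in parental cells and -0.21, -0.72 and -0.72 in the REST line, so the groups overlapped and library 20 was highest. The 12 on chromosome 19 ranged from -1.12 to -0.74, with library medians of -0.10, 0.69 and -0.60 against -0.59, -1.13 and -1.03. In 1 of the 62 and 6 of the 12 every REST line library was below every parental library. This held for 7.51% of all tested genes and for 23.5% of those on chromosome 19.

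Among homeobox genes of the HOX clusters none of 34 tested was called, beside 0.264% of all genes, so this count says little about them. *HOXB2* was 6.58, 6.64 and 5.69 in parental cells and 5.49, 4.57 and 4.61 in the REST line (adjusted *P* = 0.0836, limma). *HOXB9* was 0.92, 0.68 and 0.89 against 2.00, 2.41 and 2.41 (adjusted *P* = 0.282, limma), without overlap. Both *P* values rest on a variance pooled over all H524 groups, not on the compared libraries alone.

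Libraries 35 and 36 were far more alike than either was to library 34. The scaled median absolute difference between them was 0.085 on the log2 scale, against 0.388 and 0.376 with library 34. Over all 60 pairs of libraries within a group of the series the range was 0.077 to 0.735, with 3 pairs below 0.1. Whether libraries 35 and 36 differ beyond sampling noise could not be tested without counts.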
